A study of Mus musculus with 24 samples.

Results

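Aldh1a3 and 9 other aldehyde dehydrogenase genes (Aldh1a1, Aldh1a2, Aldh1b1, Aldh2, Aldh3a1, Aldh3a2, Aldh3b1, Aldh7a1 and Aldh9a1) were followed over 24 one-colour microarrays of mouse tumour cells, as 10 of the 45547 gene names on the array. The members are the genes whose RefSeq transcripts carry those symbols. They were measured by 15 probes, a single probe for 6 genes and several for 4. Aldh1a3 had a single probe, so its values were not checked by a second. The family was chosen by the signal of its genes on these same arrays, in particular by the differences of Aldh1a3 between the lines, so levels and differences of the 10 genes are descriptions without a test. The arrays profiled cultured lines from a study of minimal residual disease, the tumour cells that outlast a treatment. B16F1-GFP-M (M below, 3 arrays) is the parental B16-F1 melanoma, a pigmented line of C57BL/6 origin that carries a green fluorescent protein. B16F1-GFP-D (D, 4 arrays) was recovered after about a year of dormancy in a mouse vaccinated with irradiated, cytokine-secreting tumour cells. B16F1-GFP-DB#1 (4 arrays), B16F1-GFP-DB#2 (3 arrays) and B16F1-GFP-DB#3 (3 arrays) were recovered from the brain, in what the study's methods call the second generation of dormant cells. M0 (4 arrays) and J365 (3 arrays) are labelled as myeloid cells, and the study's methods describe a parental myeloid leukemia with a dormant counterpart without using these names. All M0 and J365 titles carry the tag p20, which no melanoma title carries. Each line is a single line that was expanded in culture before RNA was taken, and the labels do not say whether its arrays came from separate cultures, so errors measure the spread between arrays.

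Aldehyde dehydrogenases oxidise aldehydes to carboxylic acids with NAD+ or NADP+ as the acceptor. Aldh1a1, Aldh1a2 and Aldh1a3 turn retinaldehyde into retinoic acid, the ligand of the nuclear receptors Rara, Rarb and Rarg, and the rest of the family clears aldehydes from ethanol, lipid peroxidation, amino acids and choline-like compounds. High aldehyde dehydrogenase activity is widely used to sort stem-like subpopulations of tumour cells, and in melanoma that activity is usually traced to Aldh1a1 and Aldh1a3.

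A pair of neighbouring genes is set out first, the member Aldh1a1 and its rodent paralog Aldh1a7, which is the next protein-coding gene on chromosome 19. Their promoters are shown because the pair shares its proximal sequence while its differences from M were unlike in size, as described below with the limit set by dim signal. Each line gives the 250 bases before a RefSeq transcription start on build GRCm38.p6, and capitals mark the longest run of bases common to both.
Aldh1a7, chr19:20727557-20727806, minus strand: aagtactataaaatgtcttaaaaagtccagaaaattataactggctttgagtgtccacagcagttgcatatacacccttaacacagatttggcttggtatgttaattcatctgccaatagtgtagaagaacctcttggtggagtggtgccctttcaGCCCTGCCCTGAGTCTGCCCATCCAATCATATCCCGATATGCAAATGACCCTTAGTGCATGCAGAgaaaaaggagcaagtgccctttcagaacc
Aldh1a1 (downstream of its 2 starts), chr19:20601718-20601967, plus strand: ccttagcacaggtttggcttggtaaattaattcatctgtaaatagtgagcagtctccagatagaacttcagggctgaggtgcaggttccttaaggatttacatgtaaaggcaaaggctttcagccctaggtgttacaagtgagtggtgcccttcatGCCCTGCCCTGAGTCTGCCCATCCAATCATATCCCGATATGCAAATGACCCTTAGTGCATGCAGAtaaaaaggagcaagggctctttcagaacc
The shared run was 65 bases long and lay 30 to 94 bases before the start in both genes. Over the 100 bases nearest the start, 94 positions were identical when the windows were set side by side without gaps. The other Aldh1a1 start, further upstream, had 30 of 100 positions in common with Aldh1a7. The run holds the octamer ATGCAAAT, which stood in 1.60% of 32851 promoter windows of the same length when both strands were searched. CCAAT also stood in both, against 33.8% of all windows, and so did TGACCC, a nuclear receptor motif that lies inside the shared run, shares its first base with the end of the octamer and stood in 11.6% of all windows. The related motif AGGTCA stood in neither, against 14.0%, nor did CACGTG, against 6.02%. These matches describe letters only. The promoter table held 6 of the 10 members, and Aldh1a3, Aldh2, Aldh3a1 and Aldh7a1 had no entry.

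Values are given as normalized log2 signal, the log2 of the scanner's processed signal less the 75th percentile of that array, so that 0 is the level of a probe at the 75th percentile. A difference of 1 is a 2-fold change. A probe counts as detected where the scanner software called it well above background. Levels of different genes are not compared, because probes differ in how brightly they bind. Between 43.6% and 53.8% of probes were detected on 23 of the arrays, and 89.9% on D replicate 3. The differences of Aldh1a3, Aldh1a7, Aldh1l1 and Aldh5a1 between D and M are therefore also given without it. So are those of Aldh1l1 and Aldh5a1 between DB#2 and D. Other results for D include that array, except where 1 array at a time was left out. All lines labelled melanoma had high melanocyte markers (averages of 6.68 to 7.58, with -4.45 to -4.09 in M0 and J365). Blood cell markers were high in M0 and J365 (averages of 2.28 to 2.72, with -3.13 to -1.25 in the melanoma lines). D replicate 3 gave the highest melanoma averages for blood, fibroblast, astrocyte, neuron, endothelial and keratinocyte markers. The arrays lay on 3 slides and every slide held every line.

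Aldh1a3 was low in the parental melanoma and stood higher on every array of D and of the 3 brain-derived lines. In M its 3 arrays read -3.27, -3.14 and -3.07, a mean of -3.16 ± 0.10 (SD, n = 3). In D they read -0.098, -0.61, -0.61 and -0.69, a mean of -0.50 ± 0.27 (SD, n = 4). Every D array lay more than 2 log2 units above every M array, and D replicate 1 was the highest of its line. DB#1 read 0.55, -0.52, -0.53 and -0.48 (mean -0.24 ± 0.53, SD, n = 4), with replicate 1 well apart from 3 arrays that nearly coincided. DB#2 read -0.87, -1.32 and -1.67 (mean -1.29 ± 0.40, SD, n = 3), the lowest of the 4 derived lines. DB#3 read 0.23, 0.019 and 0.018 (mean 0.089 ± 0.12, SD, n = 3), the highest. All 17 melanoma arrays detected the probe. In bulk RNA a change in the share of cells that make a transcript cannot be told apart from a change in the amount per cell.

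**Figure D1:**
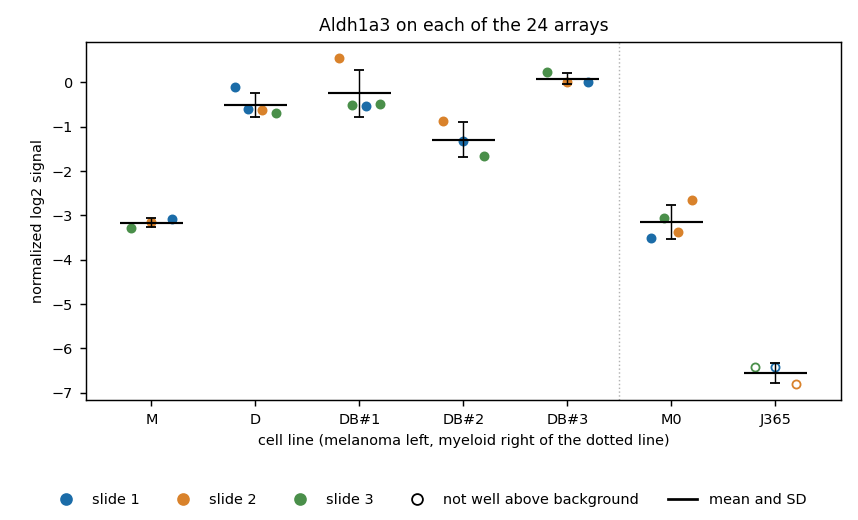
Normalized log2 signal of Aldh1a3 (vertical axis) on each of the 24 arrays, by cell line; colours mark the slide, open circles arrays where the probe was not well above background, and bars the mean and SD of the line. M sits near -3.16, the 4 derived melanoma lines between -1.67 and 0.55, M0 near -3.15 and J365 near -6.55.

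On the log2 scale the differences of the means from M were 2.66 ± 0.25 (SE of the fit) in D, 2.92 ± 0.25 in DB#1, 1.87 ± 0.27 in DB#2 and 3.25 ± 0.27 in DB#3. These correspond to 6.32-fold, 7.57-fold, 3.67-fold and 9.52-fold higher signal. Ordered by size, Aldh1a3 had the 50th highest difference of 20145 genes tested in D, the 91st of 20708 in DB#1, the 200th of 20951 in DB#2 and the 52nd of 20581 in DB#3. All 4 comparisons share the same M arrays. Without D replicate 3 the difference in D was 2.70. Within the slides it was 2.72, 2.53 and 2.58 on slides 1, 2 and 3. On each slide DB#1, DB#2 and DB#3 also stood above M, by 1.61 in the smallest case (DB#2, slide 3) and 3.70 in the largest (DB#1, slide 2). With the normexp background correction, which adds an offset and compresses dim values, the differences were 1.65, 1.91, 1.06 and 2.20 in D, DB#1, DB#2 and DB#3.

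Among the derived lines the order of the means was DB#3, DB#1, D and DB#2. Neighbouring lines overlapped for DB#3 and DB#1 and for DB#1 and D, whereas D and DB#2 did not overlap. Against D, the means differed by 0.26 ± 0.23 (SE) in DB#1, -0.78 ± 0.25 in DB#2 and 0.59 ± 0.25 in DB#3. The DB#1 value came to -0.0046 when DB#1 replicate 1 was left out. Arrays of D overlapped with those of DB#1 but not with those of DB#2 or DB#3. Over all genes tested, 2.54%, 12.6% and 4.28% did not overlap in these 3 comparisons.

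In the myeloid cells Aldh1a3 ran the other way. M0 read -2.66, -3.50, -3.05 and -3.38 (mean -3.15 ± 0.38, SD, n = 4), all detected. J365 read -6.80, -6.43 and -6.42, and none of its 3 arrays detected the probe. Every M0 array lay above every J365 array, with a difference in means of -3.41 ± 0.26 (SE). Since J365 has no measured level, a bound was set on the processed signal, taking for each J365 array the dimmest probe detected on it. By that bound, which makes no allowance for error, the signal in M0 was at least 2.12-fold higher (1.08 on the log2 scale). It holds for the processed signal alone, since the normexp correction gave a smaller difference, -0.81. M and M0, a melanoma and a myeloid line, differed by -0.017 ± 0.26 (SE).

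Aldh1a1, the best known retinaldehyde dehydrogenase, was dim throughout. Its arrays read -2.36, -3.21 and -3.59 in M and -2.24, -4.27, -2.62 and -3.98 in D. The D values spread on both sides of those of M. DB#1 ranged from -4.04 to -3.20, DB#2 from -3.38 to -2.98 and DB#3 from -4.84 to -4.02. DB#3 was the only derived line whose arrays all lay below those of M, by 1.29 ± 0.51 (SE) in the means, and 1 of its 3 arrays detected the probe. In M0 and J365 the probe was detected on 1 of 7 arrays. Aldh1a2, the retinaldehyde dehydrogenase that dominates in the embryo, was detected on D replicate 3 alone, at -2.24, and read between -6.79 and -4.80 on the other 16 melanoma arrays. It was not detected throughout any line and was tested in none of the 9 comparisons. Within the retinaldehyde branch, higher signal against M was therefore seen for Aldh1a3 and not for Aldh1a1 or Aldh1a2.

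Aldh2 and Aldh1b1 work mainly in mitochondria. Aldh2, which oxidises acetaldehyde from ethanol, was detected on all 24 arrays. Its line means ran from 4.46 ± 0.21 in DB#2 to 4.86 ± 0.22 in M (SD, n = 3 each) among the melanoma lines, and were 4.57 ± 0.56 in M0 (n = 4) and 4.81 ± 0.35 in J365 (n = 3). Every derived melanoma line overlapped with M, and J365 overlapped with M0. Aldh1b1, a close relative that also accepts retinaldehyde, read -3.60 to -3.91 in M and -3.43 to -3.98 in DB#3, near the limit of detection. D ranged from -5.63 to -3.00 and 1 of its 4 arrays, replicate 3, detected the probe. In DB#2 the arrays lay below those of M without overlap, by 0.50 ± 0.39 (SE) in the means. No myeloid array detected Aldh1b1.

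The class 3 enzymes act on medium-chain, long-chain and aromatic aldehydes. Aldh3a1, known as a crystallin of the cornea, was detected on all arrays and split by slide in the melanoma lines. On slide 1 the 6 melanoma arrays read -0.31 to 0.37, whereas the 5 on slide 2 read 0.80 to 1.87 and the 6 on slide 3 read 1.02 to 2.02. The 7 myeloid arrays did not show that split and read 1.31 to 2.20 over the 3 slides. Every melanoma line had its lowest array on slide 1, and line means of 0.80 to 1.17 therefore carried SDs of 0.82 to 1.08. Arrays of J365 (1.73, 1.79 and 2.20) lay above those of M0 (1.31 to 1.69), by 0.34 ± 0.58 (SE). That SE pools the spread of all lines, the melanoma lines split by slide among them. The SDs were 0.17 in M0 (n = 4) and 0.25 in J365 (n = 3). Aldh3a2, the fatty aldehyde dehydrogenase whose loss causes Sjögren-Larsson syndrome, lies next to Aldh3a1 in the genome and averaged 1.19 to 1.71 in the melanoma lines, 0.71 ± 0.77 in M0 and 1.28 ± 0.34 in J365. The 3 probes of Aldh3a2 gave differences of -0.37 to 0.032 for D minus M and of -0.35 to 0.57 for J365 minus M0, so that no direction was shared by them.

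Aldh3b1, a membrane-associated enzyme for lipid aldehydes, separated the tumour types. Its 17 melanoma arrays read 1.57 to 2.69 and its 7 myeloid arrays -3.76 to -2.96. Within the melanoma lines the means were 2.14 to 2.46 and overlapped with M in each case. Aldh7a1, which degrades lysine intermediates, showed the same order with a smaller gap. It read 3.41 to 4.70 in the melanoma lines and 1.34 to 2.44 in the myeloid lines, and its second, dimmer probe gave a difference of 2.27 between M and M0 against 2.14 for the brighter. Aldh9a1, which takes part in carnitine synthesis, ran from 2.91 to 3.89 in melanoma and from 3.43 to 4.29 in myeloid cells. These 3 genes, Aldh2, Aldh3a1 and Aldh3a2 were detected on all 24 arrays. For these 6 genes, 24 differences from M were taken with the brightest probe, in D and the brain-derived lines. They lay between -0.40 (Aldh2 in DB#2) and 0.31 (Aldh7a1 in DB#2). None of the 24 separated the arrays of the derived line from those of M. Dimmer probes went further, to 0.89 for Aldh7a1 in D and -0.46 for Aldh3a2 in DB#3. Those dimmer probes were detected on 21 and 8 of the 24 arrays.

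**Figure D2:**
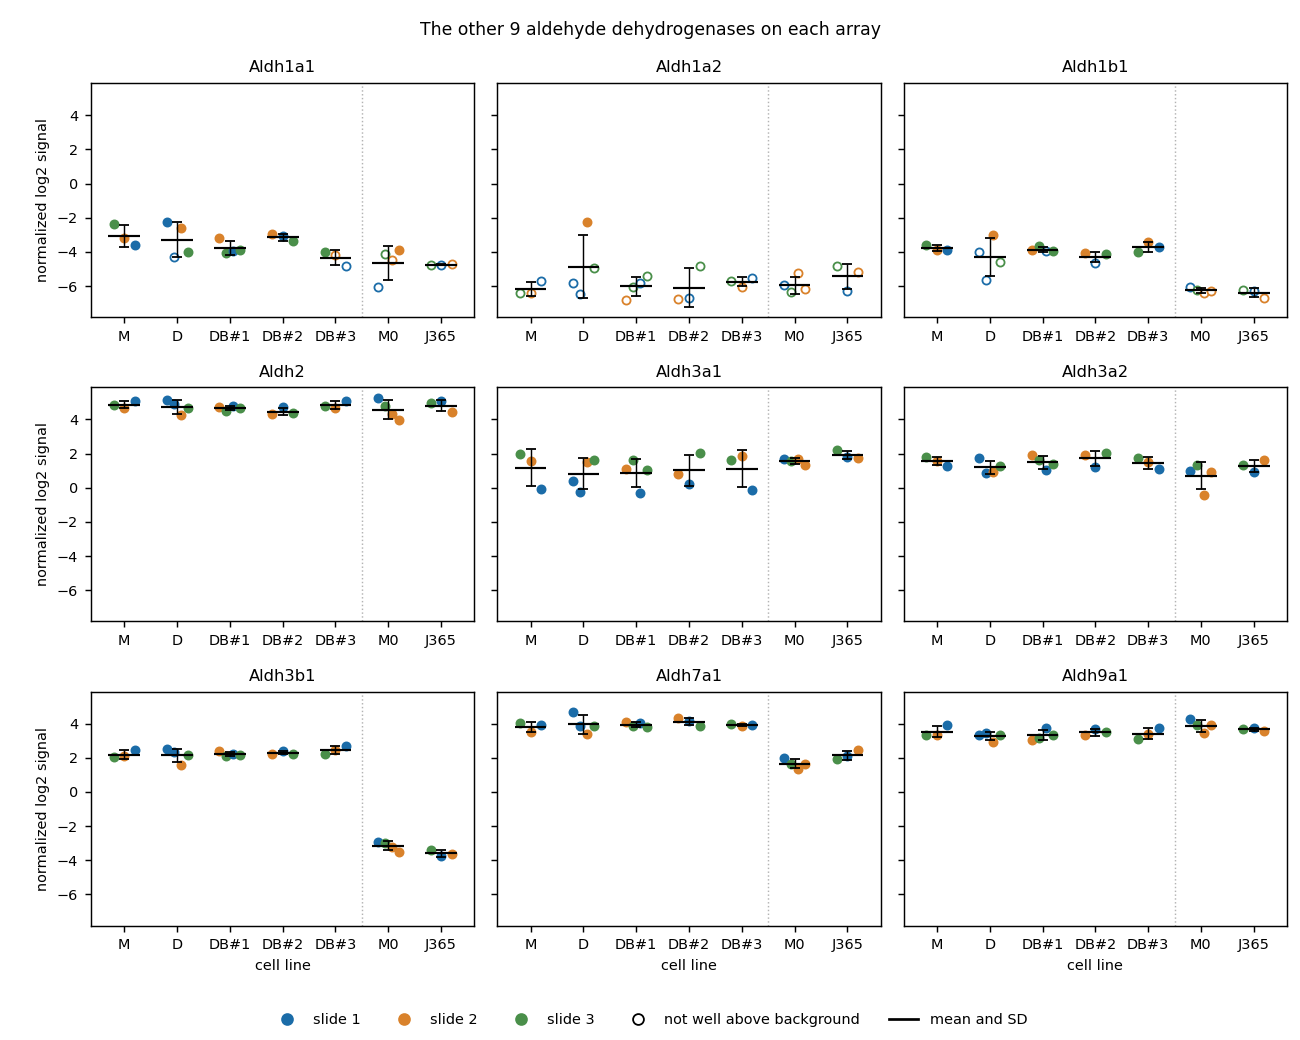
Normalized log2 signal (vertical axis) of the other 9 members on each array, by cell line, with the slide in colour, open circles where the probe was not well above background, and the mean and SD of each line. Aldh3b1 and Aldh7a1 step down from melanoma to myeloid lines, Aldh3a1 on slide 1 reads -0.31 to 0.37 in the melanoma lines, and Aldh1a2 is detected on D replicate 3 alone.

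Counted with limma at an adjusted p under 0.05 over all genes tested, 1 of 9 tested members was called in D minus M, where 2.96% of 20145 genes were called and 1.38% were called higher. The same count of 1 of 9 was found for DB#1 minus M (3.69% of all genes called, 2.05% higher), DB#2 minus M (3.44%, 2.15% higher) and DB#3 minus M (2.76%, 1.61% higher), and the member was Aldh1a3 each time, on the higher side. Arrays of the line and of M did not overlap for 1 member in D and in DB#1, where 8.43% and 19.9% of all genes did not, and for 2 members in DB#2 and in DB#3, where 21.5% and 21% did not. Against D, 0 of 8 tested members were called in DB#1, DB#2 or DB#3, where 0.475%, 6.34% and 0.369% of all genes were called (0.386%, 3.9% and 0.24% higher, and 0.0891%, 2.44% and 0.13% lower). At an unadjusted p under 0.05 limma counted 0, 1 and 1 of the 8, and with slide as a block Aldh1a3 was called in DB#2. In J365 minus M0, 1 of 7 tested members was called, again Aldh1a3 and on the lower side, where 1.47% of all genes were called, 0.721% higher and 0.745% lower. The arrays did not overlap for 2 members there (Aldh1a3 and Aldh3a1), and for 8.49% of all genes. Between M and M0, 5 of 9 were called, all higher in M (Aldh1a1, Aldh1b1, Aldh3a2, Aldh3b1 and Aldh7a1), where 58.5% of all genes were called, 27.7% higher and 30.8% lower. The arrays of M and M0 did not overlap for 4 members and for 57.8% of all genes. Nothing is read from these counts, since the contrasts were used in choosing the members. The median member difference was -0.22 in D, -0.079 in DB#1, -0.025 in DB#2 and -0.018 in DB#3 against M, beside -0.012, 0.037, 0.017 and 0.029 over all genes tested, and 0.24 in J365 against M0, beside 0.017. Of the 10 members, 7 were bright enough to be tested in every comparison.

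**Figure D3:**
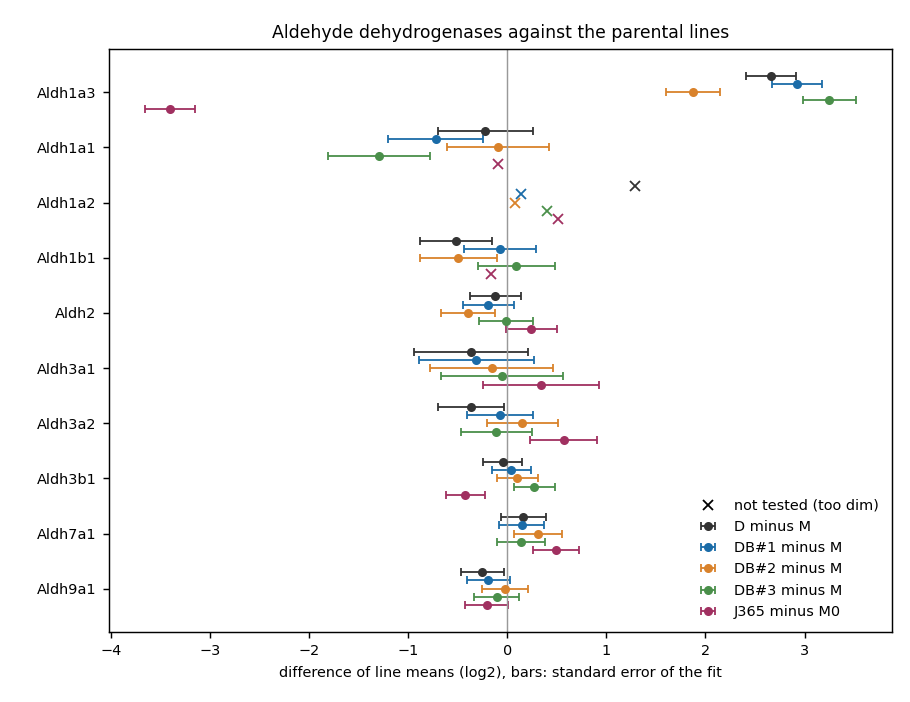
Difference of line means on the log2 scale (horizontal axis) with the standard error of the fit for each member, for D, DB#1, DB#2 and DB#3 minus M and J365 minus M0; crosses mark members too dim to be tested. Aldh1a3 lies at 1.87 to 3.25 in the 4 melanoma comparisons and at -3.41 in the myeloid comparison. The 6 members detected on all arrays lie between -0.43 and 0.57 by their brightest probes.

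The 11 further aldehyde dehydrogenases on the array were not used in choosing the members and were tested with limma. This list, like that of the genes around retinoic acid below, was drawn up with earlier results of these data known. Its adjusted p values are therefore no independent support. Aldh1a7, also measured by a single probe, fell in D and in every brain-derived line. In M it read -2.05, -1.77 and -1.58, detected on all 3 arrays. In D it read -4.77, -4.54, -4.01 and -4.96, and replicate 3 alone detected it. Every derived array lay below every M array, the nearest pair being -4.01 in D and -2.05 in M. The difference from M was -2.77 ± 0.32 (SE, adjusted p = 1.28e-05) in D. Without D replicate 3 no D array detected the probe, and M was at least 4.95-fold higher. It was -2.55 ± 0.34 (adjusted p = 5.63e-05) in DB#2, where 2 of 3 arrays detected the probe. In DB#1 and DB#3 no array detected it, and M was at least 5.83-fold and 5.61-fold higher (adjusted p = 2.78e-08 and 1.01e-06), with measured means of -5.83 and -5.25 against -1.80. These fold bounds were set as for Aldh1a3 in J365 and hold for the processed signal alone. The normexp correction reduced the 4 differences to between -1.38 and -1.19, still called. Aldh1a1, whose downstream start has the near-identical proximal promoter shown above, differed from M by -0.22 in D, -0.72 in DB#1, -0.096 in DB#2 and -1.29 in DB#3. Which of the 2 Aldh1a1 starts gave the signal was not tested. Aldh1a1 was dim in M already (mean -3.05), so a fall as large as that of Aldh1a7 would have ended below detection. The probe of Aldh1a1 was still detected on 3 of 4 arrays in D, 4 of 4 in DB#1 and 3 of 3 in DB#2. A fall of that size was thus not seen in those lines. In DB#3, where the Aldh1a1 arrays lay below those of M, 1 of 3 detected it. Aldh1a1 and Aldh1a7 transcripts are alike, and whether either probe also reads the other transcript was not tested.

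Aldh1l1 and Aldh5a1 also fell in D against M. Aldh1l1, the cytosolic formyltetrahydrofolate dehydrogenase of folate metabolism, read 4.11, 3.64 and 4.09 in M and 3.53, 2.70, 2.08 and 2.37 in D. The lines did not overlap and differed by -1.28 ± 0.34 (SE, adjusted p = 0.0445). That call was lost when any single M array or D replicate 2, 3 or 4 was left out, with -1.08 and an adjusted p of 0.117 without D replicate 3. Aldh5a1, the mitochondrial enzyme that ends the breakdown of GABA, read -0.06, -0.14 and -0.05 in M and -0.81, -0.58, -0.69 and -0.42 in D. The difference was -0.54 ± 0.14 (SE, adjusted p = 0.0339), and it was called in 5 of 17 settings. The call was lost without any single M array or without D replicate 1, 2 or 3, with an adjusted p of 0.0579 in the last case. Both genes stood higher in DB#2 than in D. There Aldh1l1 rose by 1.23 ± 0.34 (adjusted p = 0.0337) and Aldh5a1 by 0.73 ± 0.14 (adjusted p = 0.00192), so that DB#2 differed from M by -0.051 and 0.19, neither called. The Aldh1l1 call was lost without D replicate 2, 3 or 4 or any DB#2 array. Without D replicate 3 its difference was 1.03 with an adjusted p of 0.0901, and that of Aldh5a1 was 0.71 with an adjusted p of 0.00414.

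**Figure D4:**
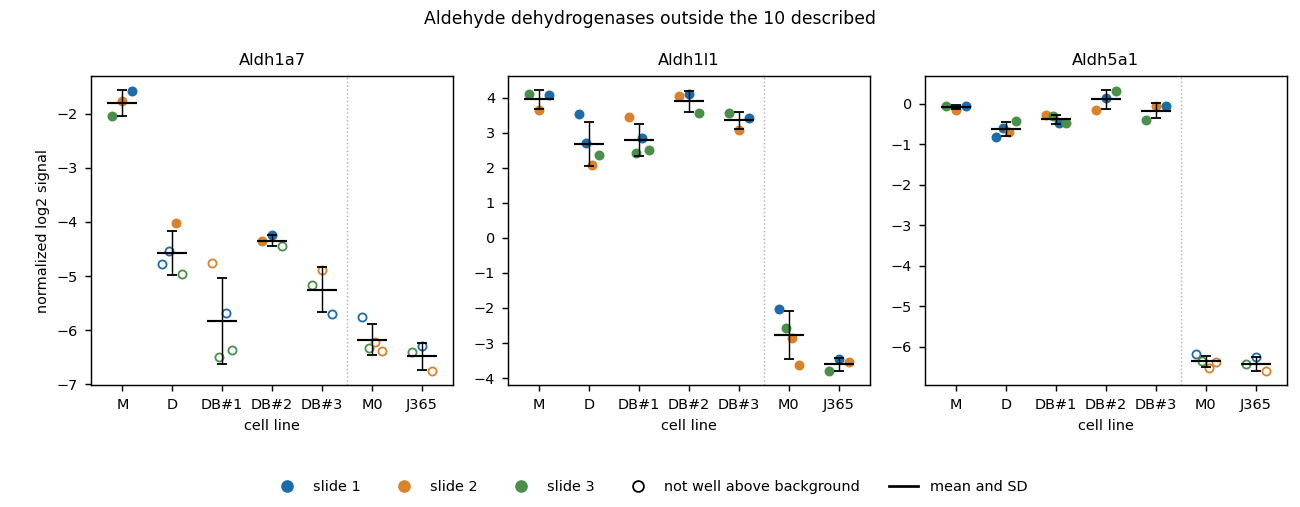
Normalized log2 signal (vertical axis, own scale per gene) of Aldh1a7, Aldh1l1 and Aldh5a1 on each array, by cell line, with slide in colour, open circles where not well above background, and the mean and SD. Aldh1a7 drops from -1.80 in M to between -5.83 and -4.35 in the derived lines, while the Aldh1l1 and Aldh5a1 means are lower in D than in M and near M in DB#2.

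Counted over the list, 3 of 9 tested genes were called in D minus M, all lower, beside 1.58% of all genes called lower. In DB#1, DB#2 and DB#3 minus M it was 1 of 10, 1 of 9 and 1 of 10, Aldh1a7 each time, beside 1.65%, 1.28% and 1.15% called lower. With slide as a block, Aldh6a1, which acts in valine breakdown, was also called in D, DB#1 and DB#2, and so was Aldh1l1 in DB#1. Without the block the Aldh6a1 differences were -0.55, -0.79 and -0.86. The list's median difference from M was -0.47 in D, -0.20 in DB#1, -0.034 in DB#2 and -0.098 in DB#3. In DB#1 minus D and DB#3 minus D, limma called 0 of 9, beside 0.475% and 0.369% of all genes, with 0 and 1 at an unadjusted p under 0.05. In J365 minus M0, 0 of 7 were called, beside 1.47% of all genes, with 1 at an unadjusted p under 0.05 and a median of -0.099. Aldh1a7 was detected on no myeloid array, so that no change could be measured there. Between M and M0, 6 of 10 were called where 58.5% of all genes were. Aldh1a7, Aldh1l1, Aldh1l2 (the mitochondrial partner of Aldh1l1), Aldh4a1 (proline breakdown; not called with the mean over its probes) and Aldh5a1 were higher in M, while Aldh18a1 (proline synthesis) was higher in M0, by 0.93 ± 0.22 (SE, adjusted p = 0.00100). Aldh1l2, Aldh1a7 and Aldh5a1 were not detected in any myeloid array, and Aldh1l1 read -3.81 to -2.02 there against 2.08 to 4.11 in melanoma.

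The genes around retinoic acid were followed as a list of 24, of which 23 were on the array, to set the retinaldehyde dehydrogenases beside their pathway. In D minus M, limma called 0 of the 14 tested, beside 2.96% of all genes, with 3 at an unadjusted p under 0.05. In DB#3 minus M it called 0 of 15, beside 2.76% of all genes, with 4. At such shares a count of 0 in a list of this length says little. With slide as a block the counts were 2 in D (Rarb and Rdh11, both lower) and 1 in DB#3 (Rarb, lower). In the main setting limma called 1 of 15 in DB#1 minus M and 2 of 15 in DB#2 minus M (Adh1 and Rarb, both higher). With the mean over probes the counts were 1, 2, 0 and 1 in D, DB#1, DB#2 and DB#3. The counts therefore do not set DB#2 apart, and its values are described for Rarb and Adh1 alone. Rarb, the retinoic acid receptor that is itself a known target of retinoic acid, read 0.68, 0.12 and 0.62 in M, 0.48, -0.30, -0.80 and -0.73 in D, and 1.65, 1.52 and 1.40 in DB#2. Every DB#2 array lay above every M and D array. Rarb was higher in DB#2 by 1.05 ± 0.25 against M (SE, adjusted p = 0.0204) and by 1.86 ± 0.24 against D (adjusted p = 2.28e-05). Its 3 probes differed by 0.090 to 1.05 against M and by 1.47 to 1.86 against D, and the call against M was lost in 6 of 16 settings, among them the mean over all probes and without M replicate 2 or DB#2 replicate 1 or 2.

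Adh1, an alcohol dehydrogenase that can oxidise retinol to retinaldehyde, read -1.80, -1.93 and -1.59 in M and -0.17, -0.21 and -0.53 in DB#2. It rose by 1.47 ± 0.26 (SE, adjusted p = 0.00112) against M, and by 1.81 ± 0.24 (adjusted p = 4.06e-05) against D. Its second probe gave 0.73 and 1.07, and with the mean over both probes neither call held. Quantile normalization also ended the call against M. The count of 2 of 15 called in DB#2 against M stands beside 3.44% of all genes. Against D, limma called 2 of 15 in DB#2 (Adh1 and Rarb, beside 6.34% of all genes). It called 0 of 14 in DB#1 (beside 0.475%) and 0 of 15 in DB#3 (beside 0.369%), with 1 each at an unadjusted p under 0.05. In J365 minus M0, 0 of 10 were called, with 2 at an unadjusted p under 0.05, and with slide as a block 1 was called (Bco2, higher). In M minus M0 10 of 14 were called, beside 58.5% of all genes. Adh1, Bco2, Cyp26b1, Rarb, Rarg and Rxra were higher in M, and Stra6, Rdh10, Rara and Tgm2 were higher in M0.

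**Figure D5:**
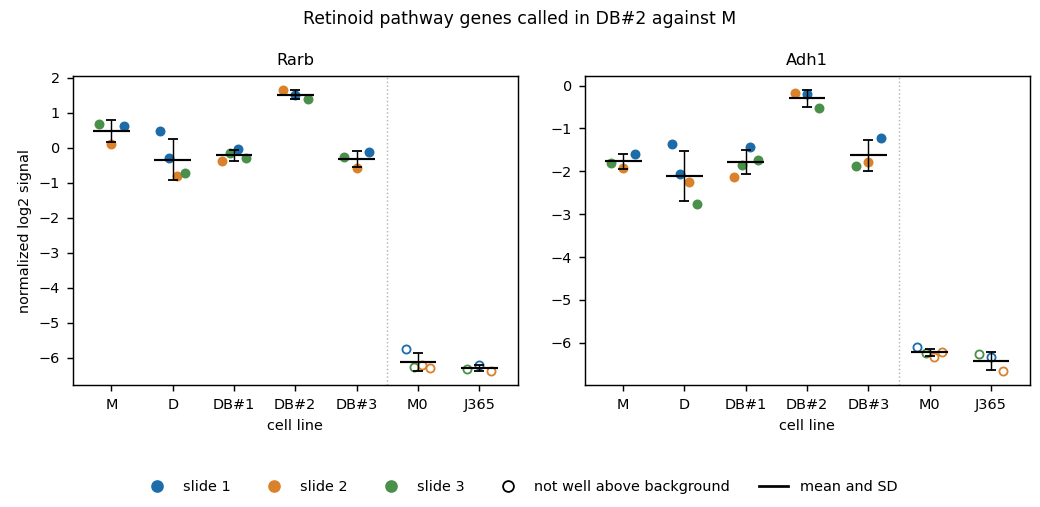
Normalized log2 signal (vertical axis, own scale per gene) of Rarb and Adh1 on each array, by cell line, with slide in colour, open circles where not well above background, and the mean and SD. The 3 DB#2 arrays are the highest melanoma arrays for Rarb (1.40 to 1.65) and Adh1 (-0.53 to -0.17).

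Over the 17 melanoma arrays, the genes whose signal ran most like that of Aldh1a3 among 13230 were Prkar1b (a regulatory subunit of protein kinase A, Pearson r = 0.955), Cgnl1 (a junction protein, 0.951), Crmp1 (a collapsin response mediator, 0.949), Ctf1 (the cytokine cardiotrophin, 0.947) and Myl9 (a myosin light chain, 0.943). These are descriptions over arrays that share 5 lines and 3 slides. With slide means subtracted, the values were 0.962, 0.955, 0.970, 0.952 and 0.947. Over the 14 arrays without M they were 0.958, 0.766, 0.806, 0.782 and 0.722. In the myeloid lines Ctf1 averaged -0.32 in M0 and 0.028 in J365, and the other 4 were detected on no myeloid array. Among the 9 other members the r with Aldh1a3 ran from -0.37 (Aldh1a1) to 0.27 (Aldh7a1) over the 8 that entered, and Aldh1a7 gave -0.84.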

How the data were processed

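Total RNA of 7 mouse lines was labelled with Cy3 and hybridised to 24 Agilent arrays. The deposited intensity values are the processed signals that the authors obtained with Agilent Feature Extraction 10.7.3.1 per the labels, background-subtracted and not scaled between arrays. Values of the deposited series table equalled these intensities (1511424 of 1511424, relative tolerance 1e-05). Columns from samples of other series numbered 0. Here they were taken to log2 less each array's 75th percentile. Spots of a probe were averaged, 117 probes with outlier flags were removed and 56488 kept, and no spot was saturated. Of these, 32917 were named through RefSeq transcripts. A gene with several probes was represented by its brightest.

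Lines, taken from the sample titles, were compared with limma 3.58.1 in R 4.3.3, with all 24 arrays in one fit (17 residual degrees of freedom) and Benjamini-Hochberg adjustment. A gene entered a comparison if its probe was well above background throughout either line. Tested on simulated data for D minus M (20145 genes), the fit recovered 87 of 100 genes changed by 2 on the log2 scale and 49 of 100 changed by 1, with 4.9% of calls false. The simulated errors were independent between arrays and had the same SD per gene in every line. Real arrays on the same slide correlated (mean r of 0.49) and D replicate 3 was unlike the rest, so these rates may not hold for the real arrays. The number of arrays limits precision. The number of identical array pairs was 0.

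The members and lists were chosen with earlier results of these data known. Named were all members, each further aldehyde dehydrogenase called in any comparison, each retinoid pathway gene called against M or in J365 against M0, and the 5 genes most like Aldh1a3. Alternatives were quantile normalization, normexp (offset 50), a percentile over detected probes, no scaling, no or a stricter filter, the mean over probes, slide or replicate number as a block, the compared lines alone and leaving out each array. Normexp used the median foreground and background columns, since the mean foreground was not in the files. Numbers in D, DB#1 and the other titles were kept as replicate names, and 2 unnumbered arrays were named replicate 4. Promoters came from RefSeq (GRCm38.p6). The files' build differs, so no probe coordinates are given. Crabp2 was not analysed here, and 1 gene of the retinoid list, which enters the counts, is not reported here.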

Additional observations from a re-analysis of the deposited data

Results flagged for a closer look

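Array readings far from the rest of their line were looked for in 132 groups of 4 arrays, by Dixon's test, which marks about 1 in 20 by chance, and 15 (11.4%) were marked. Aldh1a3 was marked in D replicate 1 (-0.098, against -0.69 to -0.61 on the other arrays) and in DB#1 replicate 1 (0.55, against -0.53 to -0.48), and Aldh1b1 in DB#1 replicate 2 (-3.67). The same D and DB#1 arrays were marked for Aldh1l2 (1.81 in D replicate 1, 0.91 in DB#1 replicate 1) and for Cyp26b1, which degrades retinoic acid (-3.00 in D replicate 1, against -0.36 to -0.21, and -1.88 in DB#1 replicate 1). Tgm2, a target of retinoic acid, was marked in DB#1 replicate 1 (-2.29, against -3.82 to -3.68). D replicate 3, the array with 89.9% of probes detected, was marked for Rdh11 (1.66), Rarg (2.80) and Rxra (5.03). M0 replicate 1 was marked for Aldh3b3 (-1.25), Rarb (-5.74) and Rxrg (-4.85), and M0 replicate 4 for Rdh10 (0.68). No M0 array detected Rarb or Rxrg, so the marks for these genes compare readings that were not well above background.

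Aldh1a3 differed in opposite directions in the melanoma and the myeloid comparison, every D array being above every M array and every J365 array below every M0 array. D minus M less J365 minus M0 was 6.07. Since no J365 array detected the probe, the processed signal gives a bound of 3.74 in place of a size. That bound does not carry over to normexp, which gave smaller parts, 1.65 for D minus M and -0.81 for J365 minus M0. The difference was not tested.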

How the results depend on the processing

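The difference of Aldh1a3 from M kept its direction in D, DB#1, DB#2 and DB#3 under every alternative run, over ranges of 1.65 to 2.84, 1.91 to 3.02, 1.06 to 2.11 and 2.20 to 3.51, as did J365 minus M0 (-3.52 to -0.81). The smallest sizes all came from normexp (1.65, 1.91, 1.06, 2.20 and -0.81), whose offset raises dim values. Without scaling, DB#3 minus D was 0.38. Leaving out 1 array at a time gave 2.52 to 2.72 (D minus M), 2.66 to 3.02 (DB#1 minus M), 1.67 to 2.07 (DB#2 minus M), 3.18 to 3.30 (DB#3 minus M), -0.0046 to 0.40 (DB#1 minus D), -0.99 to -0.59 (DB#2 minus D), 0.52 to 0.73 (DB#3 minus D), -3.52 to -3.24 (J365 minus M0) and -0.13 to 0.15 (M minus M0). The difference M minus M0 of Aldh1a3 changed sign in 7 of 15 settings. For the other members 1191 values moved by less than the spread between arrays and 15 by more.

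Counts of called genes moved as follows, with the cause not tested unless given. With the percentile over detected probes, 1 member was called in DB#2 minus D (Aldh1a3, 0 in the main setting). There 3 other aldehyde dehydrogenases were called in DB#1 minus M and 2 in DB#2 minus M (1 each in the main setting), and 2 retinoid genes in each of D, DB#1 and DB#3 minus M (0, 1 and 0). With slide as a block the counts were 1 member in DB#2 minus D, 3 and 2 other aldehyde dehydrogenases in DB#1 and DB#2 minus M, and 2, 2 and 1 retinoid genes in D, DB#1 and DB#3 minus M and 1 in J365 minus M0 (Bco2, 0 in the main setting). Quantile normalization gave 3 and 2 other aldehyde dehydrogenases in DB#1 and DB#2 minus M, and 1, 0 and 1 retinoid genes in D, DB#1 and DB#2 minus M. Normexp gave 3 members in M minus M0 (5 in the main setting), 2 other aldehyde dehydrogenases in DB#1 minus M, and 1 and 0 retinoid genes in D and DB#1 minus M. Without scaling, 1 and 2 other aldehyde dehydrogenases were called in D and DB#1 minus M, and 0 retinoid genes in DB#1 minus M. The mean over probes gave 1, 2, 0 and 1 retinoid genes in D, DB#1, DB#2 and DB#3 minus M, and 1 in DB#2 minus D. Without a filter, 1 other aldehyde dehydrogenase was called in D minus M and 1 in DB#2 minus D, and 1 retinoid gene in DB#2 minus M. A stricter filter, which tests fewer genes, gave 0 members in J365 minus M0 and 3 in M minus M0, 0 other aldehyde dehydrogenases in DB#1, DB#2 and DB#3 minus M and 3 in M minus M0, and 0 and 5 retinoid genes in DB#1 minus M and M minus M0. With only the lines compared, 1 and 0 other aldehyde dehydrogenases were called in D minus M and DB#2 minus D, and 2 retinoid genes in DB#1 minus M. With 1 array left out, other aldehyde dehydrogenases called ranged from 1 to 2 in D minus M, 1 to 2 in DB#1 minus M and 1 to 3 in DB#2 minus D, and members in M minus M0 from 3 (without M replicate 1) to 5. Retinoid genes ranged from 0 to 1 in D minus M (1 without D replicate 1, Rarb), DB#3 minus D (1 without D replicate 1, Cyp26b1) and J365 minus M0 (1 without M0 replicate 4, Bco2), from 1 to 2 in DB#2 minus M and from 10 to 11 in M minus M0.

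Arrays with the same replicate number in different lines correlated with r of -0.80 to 0.91 (mean 0.078 over 49 pairs, 11 of them on 1 slide), so the numbers were not taken as pairs, whereas arrays on the same slide averaged 0.49 over 81 pairs. With the replicate block the difference of Aldh1a3 in DB#3 minus M was 3.51. The block gave 1 member in DB#2 minus D, 2 other aldehyde dehydrogenases in DB#1 minus M, and 1, 3, 4 and 1 retinoid genes in D, DB#1, DB#2 and DB#3 minus M and 4 in DB#2 minus D.

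Without scaling, the median of all genes shifted to 0.17 in D, 0.11 in DB#1 and 0.25 in DB#2 against M, -0.15 in DB#3 against D and 0.17 in J365 against M0. The split of calls over all genes was then 407 higher and 140 lower in D minus M (277 and 319 with scaling), 1122 and 133 in DB#2 minus M (451 and 269), 879 and 330 in DB#2 minus D (806 and 504), 18 and 42 in DB#3 minus D (48 and 26) and 258 and 113 in J365 minus M0 (149 and 154), and DB#1 minus D had 58 calls (96 with scaling). With the percentile over detected probes it was 521 and 474 in DB#2 minus M, 885 and 1026 in DB#2 minus D and 35 and 41 in DB#3 minus D. J365 minus M0 had 539 calls with quantile normalization and 303 in the main setting. Signal over background limits Aldh1a1, Aldh1a2, Aldh1b1 and Aldh1a7, which were not detected on part of the arrays.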
